A study of Mus musculus with 12 samples.

Results

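The genes described here encode the proteins of the cytosolic ribosome. They were chosen from a table of 23282 lines by symbol alone, as the lines whose symbol starts with Rpl or Rps followed by a digit, together with Rpsa, Rplp0, Rplp1 and Rplp2. Symbols containing -ps (7 pseudogenes) and the 10 Rps6k kinases were left out, and a sum of at least 120 counts over the 12 tumors was required. Of 88 matching symbols, 87 met this sum, and they are called the members below: 52 start with Rpl, for the large subunit, and 35 with Rps, for the small subunit. The member nearest to the limit was Rpl3l with 202 counts in all, and Rpl10l with 3 counts fell outside it. All 87 members were among the 13464 genes tested, and 9 of them were listed apart as paralogs, a retrogene or related symbols (Rpl3l, Rpl7l1, Rpl22l1, Rpl36al, Rpl39l, Rps4l, Rps27l, Rps27rt and Rps19bp1). The retrogene Rpl37rt was not in that list and counts among the other members.

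RNA came from 12 subcutaneous tumors of MC38, a mouse colon carcinoma cell line, grown in the flank of female C57BL/6 mice that were 6 weeks old and wild type. Each of the 4 groups had 3 tumors, taken on day 19. The Con mice received saline, with DMSO and Tween 80 as the study's methods add, and the control antibody IgG2a. The SFIH mice received 50 mg/kg each day of SFIH, a hexane fraction of Inula helenium rich in sesquiterpene lactones. The PD mice received 200 μg of an antibody against the immune checkpoint receptor PD-1 at each of 2 injections per week, and the Comb mice received both agents. All agents were given intraperitoneally, and the tumors come from 1 cell line, so that they stand for 1 carcinoma in 1 mouse strain. RNA was taken from whole tumor tissue, although the labels name tumor cells. Changes in the makeup of a tumor and changes in RNA per cell therefore cannot be told apart. Libraries copied the 3′ ends of transcripts, so that a count stands for a transcript whatever its length, and levels of different genes are set side by side as CPM, the counts scaled to a common total for each tumor, without division by length.

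The ribosome joins a small subunit, which reads the mRNA, and a large subunit, which forms the peptide bond. Its proteins are made in nearly equal amounts in growing cells, and their mRNAs belong to the most abundant in any proliferating tissue. Most of these mRNAs begin with a C followed by a run of pyrimidines, the terminal oligopyrimidine or TOP tract, through which the kinase mTOR and the protein LARP1 control their translation and stability. MYC drives transcription of many of the same genes. Tumors are known for high ribosome production, and muscle, testis and other tissues carry a few paralogs of their own.

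Start sites in RefSeq (GRCm38.p6) were found for 66 of the 87 members. A C followed by at least 4 further C or T, searched on the transcript's strand only and starting no more than 5 bases from the annotated start, stood at 41.0% of 78 member starts and at 18.3% of 32851 starts of all genes. With the window narrowed to the annotated base itself the shares were 17.9% and 2.51%, and windows of 1, 2 and 3 bases gave 25.6%, 29.5% and 34.6% for the members and 6.32%, 8.96% and 11.5% for all starts. The windows were compared after their shares had been seen, and a tract is a description of letters and not evidence of control. The following 30 bases, 15 before and 15 from the start, are shown for 8 members that the results return to, chosen after their values were seen, with a tract in capitals where these letters were found. The first 4 belong to members that were high in 1 Comb tumor and the next 2 to members that were not. The last 2 belong to paralogs, which were also high in that tumor.
Rps27: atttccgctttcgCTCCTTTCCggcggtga
Rps27rt: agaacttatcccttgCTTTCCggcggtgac
Rps24: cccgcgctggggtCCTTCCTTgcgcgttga
Rpl37a: ttccgctcgccggtctaaaaccgcgcatgc
Rplp2: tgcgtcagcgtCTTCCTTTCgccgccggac
Rps2: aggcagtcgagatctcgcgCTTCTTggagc
Rpl22l1: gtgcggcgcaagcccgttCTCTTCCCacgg
Rpl39l: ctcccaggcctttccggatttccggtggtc
For Rps24 this is 1 of 2 starts in RefSeq. These windows lie at chr3:90213634-90213663 (minus strand, Rps27), chr9:114982725-114982754 (minus strand, Rps27rt), chr14:24490663-24490692 (plus strand, Rps24) and chr1:72711245-72711274 (plus strand, Rpl37a). The others lie on plus strands, at chr7:141447636-141447665 for Rplp2, chr17:24720048-24720077 for Rps2, chr3:28805493-28805522 for Rpl22l1 and chr16:10170213-10170242 for Rpl39l. Each window spans the annotated start of its gene and so holds the end of the promoter and the first bases of exon 1. Rps27 and its retrogene Rps27rt both carry a tract, on different chromosomes. Rps2 and Rplp2 carry one too, so that a tract was found both in members that were high in that tumor and in members that were not.

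Total counts were between 7870741 and 12261032 per tumor, and members held between 544558 and 1152576 of them. The labels number 3 tumors in each group and do not state that each came from its own mouse, so the p-values below measure the spread between these samples. One tumor, Comb replicate 3, stood apart before any comparison. Its 12 skeletal muscle markers summed to 7002 CPM, against 836 in Comb replicate 1 and 6.81 in Comb replicate 2, and against 7.8 to 14.2 in Con, 10.4 to 60.8 in SFIH and 4.32 to 170 in PD. Of these muscle markers 12 of 12 were highest in this tumor, as were 9 of 9 macrophage markers, which summed to 11343 CPM against 577 to 3578 in the other tumors. The 8 proliferation markers were all lowest there and summed to 245 CPM, against 1989 to 3083 elsewhere. Markers of adipocytes summed to 976 CPM (37.3 to 406 elsewhere), of skin to 306 (2.66 to 28.5) and of erythroid cells to 1841 (65.6 to 1430), and 8 leukocyte markers summed to 533 (85 to 310). No muscle, skin, macrophage or proliferation marker was at 0 in this tumor. The 8 epithelial carcinoma markers were low throughout, at 4.6 to 22.3 CPM in the other tumors and 88 in Comb replicate 3, and Cdx2, a defining intestinal factor, was at or under 3 counts in each tumor. The part of these other cells in the results below was not tested, and the main results that rest on Comb replicate 3 are given with and without it.

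The members took a large and variable share of all counts. It was 8.0%, 8.64% and 7.58% in the Con tumors (mean 8.07% ± 0.53, SD, n = 3) and 7.43%, 8.77% and 9.68% in the SFIH tumors (8.63% ± 1.1). The PD tumors had 7.34%, 6.92% and 7.86% (7.37% ± 0.47), and the Comb tumors 7.65%, 9.07% and 10.5% (9.07% ± 1.4). The lowest share was in PD replicate 2 and the highest in Comb replicate 3, and all groups overlapped, while SFIH replicates 2 and 3 and Comb replicates 2 and 3 lay above each PD and Con tumor. The exact 95% binomial interval of a share, which covers counting error only, was at most 0.0371 percentage points wide, so that the spread between tumors and not the depth limits these values. Rn45s, a precursor of ribosomal RNA, held 4.28% to 17.1% of the counts of a tumor. With Rn45s taken out of the totals, the mean shares were 8.81% (Con), 9.25% (SFIH), 8.31% (PD) and 10.1% (Comb). On that scale the Comb tumors, at 8.52%, 10.6% and 11.1%, were all above the PD tumors, at 8.1%, 8.35% and 8.47%, and SFIH replicate 2, at 9.16%, was below Con replicate 2, at 9.37%, so that the overlap of the groups depends on this choice. The 77 mitochondrial ribosomal proteins held 0.536% ± 0.017 of counts (Con), 0.578% ± 0.032 (SFIH), 0.484% ± 0.027 (PD) and 0.495% ± 0.058 (Comb), with the Comb mean below the Con mean.

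**Figure D1:**
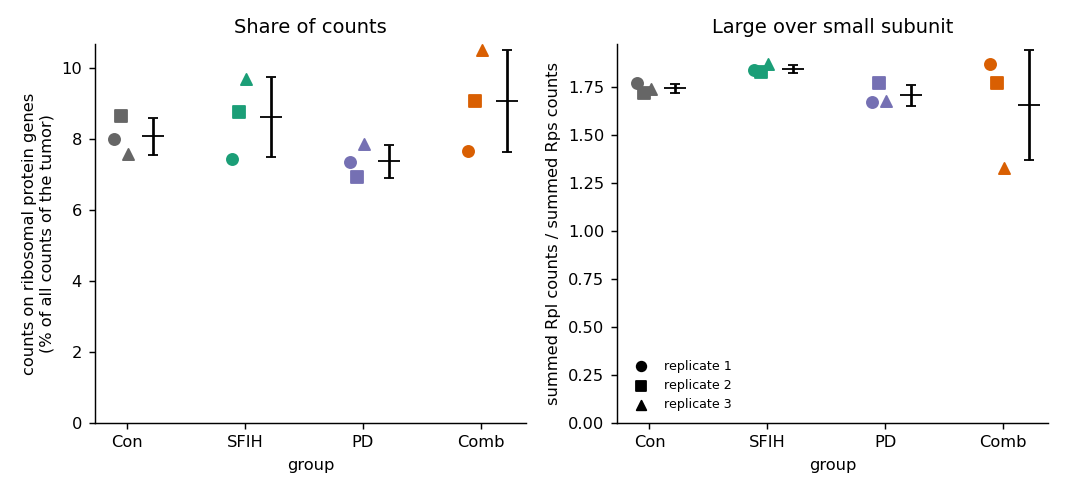
Share of all counts on the 87 members (left, % of the counts of the tumor) and the ratio of summed Rpl to summed Rps counts over the members outside the list of 9 (right, no unit), with a point for each tumor and a bar for the mean and SD of 3 tumors. The share reached 10.5% in Comb replicate 3, and the ratio in that tumor was 1.33, below the 1.67 to 1.87 of the other 11.

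Among the members, levels differed widely. The mean over the 12 tumors ran from 1.6 to 5266 CPM with a median of 586, and 83 of 87 lay above 100 CPM. The 5 with the highest mean were Rplp1 (5266 CPM), a protein of the stalk that recruits elongation factors, Rpl22 (3103), Rpl37rt (2812), a retrogene of Rpl37, Rps20 (2807), a protein of the head of the small subunit, and Rpl13 (2573). Rplp1 alone held between 5.44% and 8.1% of the members' counts. A retrogene among the leading members shows how far the table can separate copies. Rpl37rt held 345197 counts and Rpl37 itself 153111, and the share on the retrogene stayed between 64.3% and 71.9% of the pair in each tumor. The pseudogene Rpl34-ps1 held 272739 counts beside 286282 on Rpl34, with 48.4% to 49.1% on the pseudogene, and Rplp2-ps1 held 193600 beside 108625 on Rplp2, with 59.4% to 66.5%. How reads that match several copies were assigned is not given in the sources used here, so the level of such a member is uncertain.

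Windows were taken from the last 300 bases of an annotated transcript of each member, which need not be the end that these libraries read. There the median member shared 32.7% of its 75-base windows with a transcript of another gene. Of 85 members with a transcript in the annotation, 31 shared no window, 33 shared more than 50% and 4 shared each of them (Rpl9, Rpl10, Rpl36a and Rps27). Rps27 and Rps27rt were at the far end of this, with 100% and 87.2% of windows shared. Rpl37a, Rps20, Rplp2, Rpl6 and Rplp0 shared none, and Rps24, Rps14 and Rpl39 shared 5.75%, 5.75% and 2.65%. Sharing none does not free a level from copies. Rplp2 and Rpl37 shared none, yet Rplp2-ps1 held 59.4% to 66.5% of the counts of its pair and Rpl37rt 64.3% to 71.9%. Rps2 shared 65.9% with transcripts of 30 other genes. These figures are from exact matches in GENCODE vM21 and do not use the deposited counts.

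In the comparison of SFIH with Con, which asks what the plant fraction did on its own, the members lay slightly higher as a group and none was called. Of 87 members 63 had a higher level in SFIH, with a median log2 fold change of 0.09 against 0.02 over all genes. The median was -0.02 without SFIH replicate 3, so that its sign rests on 1 tumor. No member had an adjusted p under 0.05 by edgeR's quasi-likelihood test, where 0.0% of all genes had one, nor by DESeq2. At an unadjusted p under 0.05, 1 member was higher (1.15%, against 1.2% of all genes) and 0 were lower (1.05% of all genes). Groups did not overlap, in the higher direction, in 5 members (5.75%, against 8.55% of all genes), and in the lower direction in 0 (8.86% of all genes). Without TMM scaling these counts were 13 and 2, against 7.55% and 8.85% of all genes.

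Among the members with a high fold change in SFIH was Rps13, a small-subunit protein. It stood at 275.9, 289.3 and 226.6 CPM in Con and at 282.4, 350.6 and 416.3 CPM in SFIH, on the scale after TMM that is used for all levels of single members from here on. SFIH replicate 1 lay within the Con range and the other two above it, with a log2 fold change of 0.41 ± 0.24 (SE, edgeR adjusted p = 1.0). Rpl3, a protein next to the peptidyl transferase center, was at 773, 828.8 and 607.1 CPM in Con and at 751.8, 910.7 and 1138 CPM in SFIH, again with overlap (0.34 ± 0.22, edgeR adjusted p = 1.0). Rpl7a, Rpl21, Rpl29 and Rpl35 were among the members with all SFIH tumors above all Con tumors.

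At the low end, Rps14, a protein of the platform of the small subunit, was at 2455, 2343 and 2156 CPM in Con and at 1235, 1606 and 2287 CPM in SFIH. SFIH replicate 3 lay within the Con range and the other two below it, with a log2 fold change of -0.44 ± 0.22 (edgeR adjusted p = 1.0). Rplp2, the partner of Rplp1 in the stalk, was at 995.5, 1060 and 881.6 CPM in Con and at 667.6, 734.5 and 924.8 CPM in SFIH, again with overlap (-0.34 ± 0.17, edgeR adjusted p = 1.0). Relative to the median member, which does not depend on how libraries are scaled, Rplp2 was at 0.82, 0.81 and 0.80 log2 units in Con and at 0.34, 0.21 and 0.42 in SFIH. Rps14 was at 2.12, 1.95 and 2.09 in Con and at 1.23, 1.34 and 1.72 in SFIH, so that on this scale the groups did not overlap in either member. Rpl22l1, the paralog of Rpl22, was lowest in SFIH at 61.7, 83.3 and 114 CPM against 100.1, 138.9 and 78.9 in Con (-0.29 ± 0.43, edgeR adjusted p = 1.0). The ratio of summed Rpl to summed Rps counts, over the members outside the list of 9, was 1.77, 1.72 and 1.74 in Con and 1.84, 1.83 and 1.87 in SFIH, with all SFIH tumors above all Con tumors and no test. Without the retrogene Rpl37rt it was 1.67, 1.62 and 1.64 in Con and 1.75, 1.72 and 1.76 in SFIH.

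In PD against Con, the effect of the antibody alone, the members lay close to 0 as a group. The median log2 fold change was -0.04 (all genes 0.01), 34 of 87 were higher, and without Con replicate 2 the median was 0.02. No member passed in edgeR's quasi-likelihood test (0.0% of all genes) or in DESeq2, and at an unadjusted p under 0.05 there were 0 higher and 0 lower, against 2.31% and 1.68% of all genes. Groups did not overlap in 3 members that were higher (Rps9, Rpl14 and Rpl36al) and 4 that were lower (Rpl11, Rpl29, Rpl41 and Rps14), which is 3.45% and 4.6% against 9.42% and 9.36% of all genes. Without TMM scaling the counts were 1 higher and 25 lower, against 5.76% and 14.8% of all genes, so that the lower count depends on the scaling.

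Rps14 was again among the lowest, at 1990, 1851 and 1837 CPM in PD, below each Con tumor (-0.29 ± 0.22, edgeR adjusted p = 1.0). Rpl39, a small protein that lines the exit tunnel, was at 564.7, 525.9 and 587.3 CPM in Con and at 366.7, 582.4 and 379.3 CPM in PD, with 1 PD tumor in the Con range (-0.34 ± 0.37, edgeR adjusted p = 1.0). Rpl19, at the rim of the same tunnel, was at 389.2, 529 and 423.2 CPM against 552.7, 604.9 and 506.6 in Con, with overlap (-0.31 ± 0.23, edgeR adjusted p = 1.0). The 3 highest among members with a mean of at least 50 counts were Rps4l (0.71 ± 0.66), Rpl22l1 (0.35 ± 0.43) and Rps9 (0.26 ± 0.32), all with an edgeR adjusted p of 1.0. Rps9 was at 2004, 1964 and 2077 CPM in PD and at 1686, 1831 and 1526 in Con, without overlap.

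The combination of both agents gave the largest differences, and they rested mainly on 1 tumor. In Comb against Con, 77 of 87 members were higher, with a median log2 fold change of 0.50 where the median of all genes was -0.03. In Comb against PD, which asks what SFIH added to the antibody, 80 of 87 were higher (median 0.54, all genes -0.003), and in Comb against SFIH 75 of 87 (median 0.35, all genes -0.05). These comparisons share the Comb tumors and are not independent. Comb replicates 3 and 2 were also the tumors with the highest macrophage marker sums (11343 and 3578 CPM) and the lowest proliferation marker sums (245 and 1989 CPM), and the part of these cells in the members' levels was not tested. Without Comb replicate 3 the medians were 0.23, 0.28 and 0.12, and without Comb replicate 1 they were 0.69, 0.75 and 0.57. Without TMM scaling, the median of all genes was itself shifted, and the members' medians were 0.19, 0.33 and 0.05.

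By edgeR's quasi-likelihood test no member had an adjusted p under 0.05 in Comb against Con (lowest 0.0665, 0.0% of all genes), against PD (lowest 0.243, 0.0% of all genes) or against SFIH (lowest 0.128, 0.0% of all genes). DESeq2 called 12 members in Comb against Con (13.8%, against 11.7% of all genes), 4 in Comb against PD (4.6%, against 2.43%) and 4 in Comb against SFIH (4.6%, against 7.36%), all higher in Comb. These shares were near those of all genes. With Comb replicate 3 left out, DESeq2 called 1, 0 and 1 members as higher, where it called 3.93%, 0.0647% and 0.591% of all genes. With Comb replicate 1 left out, edgeR called 42, 41 and 33 members as higher (48.3%, 47.1% and 37.9%), against 18.4%, 11.0% and 15.5% of all genes, and with Comb replicate 3 left out it called 0 in each, against 0.0294%, 0.0% and 0.0% of all genes. At an unadjusted p under 0.05, 38 members (43.7%) were higher in Comb than in Con, against 18.0% of all genes, and 0 were lower against 7.3%. In Comb against PD the counts were 39 (44.8%) against 12.9% of all genes, and 0 lower against 5.11%. In Comb against SFIH they were 20 (23.0%) against 14.8%, and 0 lower against 4.22%.

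A separation of the groups was less common than these counts. All Comb tumors were above all Con tumors in 15 members (17.2%, against 11.7% of all genes) and below them in 2 (2.3%, against 13.0%), namely Rps2 and Rps14. They were above all PD tumors in 22 members (25.3%, against 6.16% of all genes) and below them in 1 (1.15%, against 8.1%), Rplp2. They were above all SFIH tumors in 2 members (2.3%, against 7.65%), Rpl7a and Rps4l, and below them in 0 (8.56% of all genes). Without TMM scaling the counts above were 11, 25 and 1, against 7.6%, 4.25% and 4.65% of all genes, and the counts below were 8, 1 and 8, against 22.2%, 8.42% and 14.9%. For the interaction term, the change with both agents beyond the sum of each alone, no member passed in edgeR (0.0% of all genes) or DESeq2. The median log2 value was 0.45 (all genes -0.03). At an unadjusted p under 0.05 there were 2 members above 0 (2.3%, against 2.0% of all genes) and 0 below (0.557% of all genes). This term also rests on the Comb tumors, and its median without Comb replicate 3 is not given here.

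**Figure D2:**
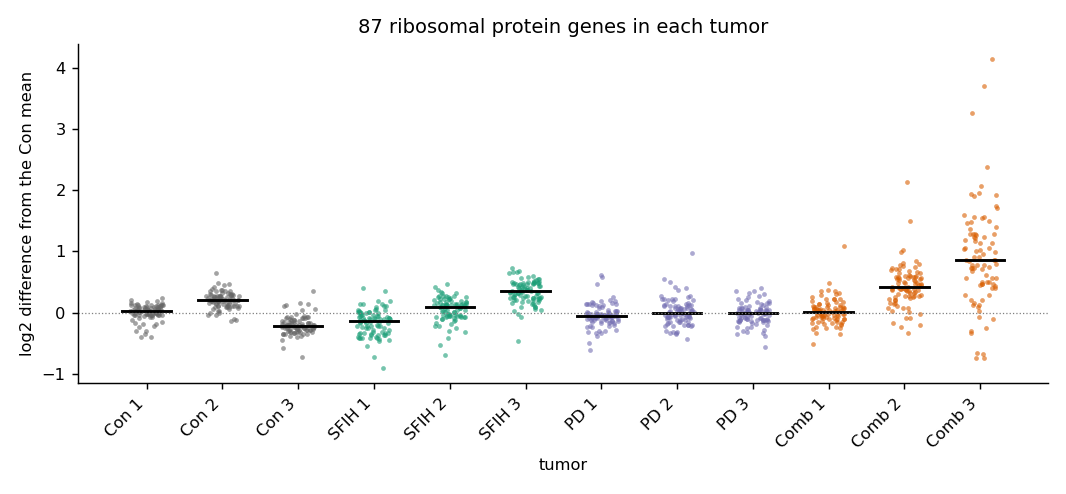
Log2 difference of each of the 87 members from the mean of the Con tumors, on the TMM-scaled CPM with 1 added, in each tumor (a Con tumor is set against the other 2 Con tumors). Points are members and bars are medians, which were 0.01 in Comb replicate 1, 0.42 in Comb replicate 2 and 0.86 in Comb replicate 3.

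Taken tumor by tumor, the 3 Comb tumors were unlike each other. The median member differed from the Con mean by 0.01 log2 units in Comb replicate 1, by 0.42 in Comb replicate 2 and by 0.86 in Comb replicate 3. Tumors that had not received both agents reached 0.35 (SFIH replicate 3), and the Con tumors themselves ran from -0.22 to 0.20. Comb replicate 3 was the highest of the 12 tumors in 63 of 87 members, or in 47 without TMM scaling, and SFIH replicate 1 was the lowest in 35. Without TMM scaling the tumor most often lowest was another one, PD replicate 2, in 28 members, followed by PD replicate 1 in 18 and SFIH replicate 1 in 12. The TMM factor of Comb replicate 3 was 0.758, where the other tumors had 0.884 to 1.12, which raises each of its scaled values.

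The differences were uneven in this tumor. The SD of the members' differences from Con over all 87 was 0.85 log2 units in Comb replicate 3, where it was 0.35 in Comb replicate 2 and 0.13 to 0.22 in the other tumors. Over the 83 members with an annotated length and a mean of at least 50 counts it was 0.67, 0.27 and 0.12 to 0.21. At the top, after the paralogs described further on, stood mostly proteins of the small subunit. Rps27, a zinc-binding protein of the small subunit, was at 173.7, 175.3 and 134.1 CPM in Con, 147.8, 180.2 and 233.6 with SFIH alone, 173.4, 214.5 and 165 with anti-PD-1 alone, and 182.6, 327.4 and 838.9 in Comb. Each Comb tumor was above each Con tumor, but Comb replicate 1 only just, and the log2 fold change of 1.48 ± 0.44 (edgeR adjusted p = 0.0802, DESeq2 adjusted p = 0.013) was 0.66 without Comb replicate 3 (edgeR adjusted p = 0.196). Its retrogene Rps27rt followed it, at 258.7, 452.2 and 1051 CPM in Comb and 245.5 to 303.1 in Con, with 55.6% of the pair's counts on the retrogene in Comb replicate 3 and 58.0% to 64.7% elsewhere. Rps29, another zinc-binding protein of the small subunit, was at 1012, 1045 and 877.6 CPM in Con, 770.8, 948.1 and 1125 with SFIH alone, 883.4, 1069 and 907.5 with anti-PD-1 alone, and 910.1, 1622 and 4087 in Comb. Comb replicate 1 lay inside the Con range, and the log2 fold change of 1.17 ± 0.43 (edgeR adjusted p = 0.124) was 0.37 without Comb replicate 3.

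Rps20 and Rps24 behaved alike in the Comb tumors, at 2131, 3350 and 8953 CPM and at 1510, 2932 and 6486 CPM, where Con had 2062 to 2602 and 1435 to 2076. Rpl37a, which like Rps27 binds zinc but sits in the large subunit, was at 261.1, 381.3 and 881.9 CPM in Comb and 209.7 to 249.9 in Con, and Rps9 at 1740, 2470 and 4939 against 1526 to 1831. The 4 members Rplp1, Rps20, Rps24 and Rps29, grouped after their values were seen, held 22.2% of the members' counts in Comb replicate 3, 14.5% in Comb replicate 2 and 11.4% to 13.4% in the other tumors. The ratio of summed Rpl to summed Rps counts was 1.33 in this tumor and 1.67 to 1.87 in the other 11, or 1.27 and 1.58 to 1.78 without Rpl37rt.

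Some members went the other way. Comb replicate 3 had the lowest level of all tumors in 5 members, or in 11 without TMM scaling. With it they were Rpl5, Rpl6, Rpl7l1, Rps2 and Rps19bp1. Rps2, which lines the channel where mRNA enters, was at 546.8, 698.6 and 548.1 CPM in Con, 511.6, 659.8 and 608 with SFIH alone, 570.7, 475.9 and 610.4 with anti-PD-1 alone, and 532, 505.7 and 352.5 in Comb. All Comb tumors were below all Con tumors, by a log2 fold change of -0.37 ± 0.21 (edgeR adjusted p = 0.281) that was -0.20 without Comb replicate 3, and Rps2 shares sequence with many other loci. Rpl6 was at 841.5 CPM in Comb replicate 3, and the lowest of the other tumors had 996.1. Its log2 fold change in Comb against SFIH was -0.18 ± 0.23 (edgeR adjusted p = 0.655) and changed sign without Comb replicate 3. Rps14 was at 1614, 2000 and 1887 CPM in Comb, below each Con tumor (-0.34 ± 0.22, edgeR adjusted p = 0.344), and it was also below Con in PD. Rps19bp1, which encodes a binding partner of Rps19 and no ribosome subunit, was at 79.6, 75.9 and 47.7 CPM in Comb and 77.6 to 85.6 in Con (-0.25 ± 0.19, edgeR adjusted p = 0.412, and -0.05 without Comb replicate 3).

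**Figure D3:**
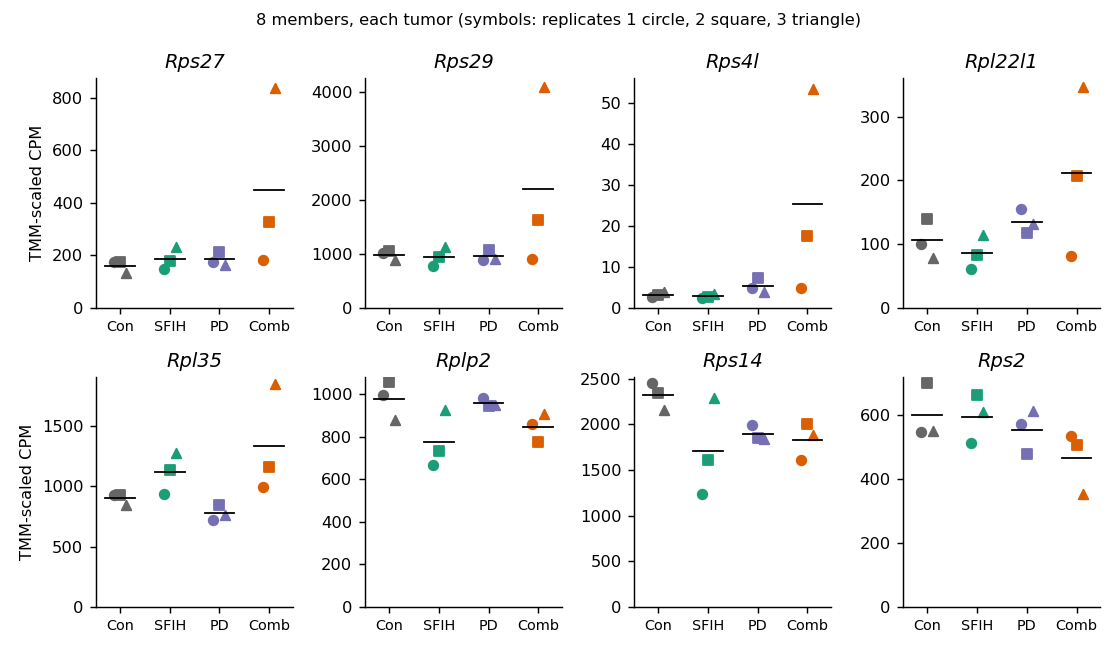
TMM-scaled CPM of 8 members in each tumor, by group, with a line at the group mean and the replicate number given by the symbol, on linear axes that start at 0. Rps27, Rps29, Rps4l and Rpl22l1 are highest in Comb replicate 3 and next in Comb replicate 2, Rpl35 is higher in each SFIH and Comb tumor than in each Con tumor, and Rps2 is lowest in Comb replicate 3.

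The stalk proteins did not move together. Rplp1 was at 4900, 5132 and 3927 CPM in Con and 4615, 6994 and 11222 in Comb (0.71 ± 0.32, edgeR adjusted p = 0.188), and the value was 0.32 without Comb replicate 3. Rplp0, the anchor of the stalk, was at 1640, 1746 and 1461 CPM in Con and 1451, 1630 and 1271 in Comb (-0.16 ± 0.19, edgeR adjusted p = 0.601, and -0.07 without Comb replicate 3). Rplp2 was at 859, 773.6 and 909.6 CPM in Comb (-0.21 ± 0.17, edgeR adjusted p = 0.444), and against PD, at 982.4, 944.6 and 950.8 CPM, all Comb tumors were lower (-0.18 ± 0.17, edgeR adjusted p = 0.559). The copy Rplp2-ps1 holds more counts than Rplp2, so that this level is uncertain.

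Among the proteins that bind the 5S RNA or the ubiquitin ligase MDM2, through which free ribosomal proteins stabilize p53, Rpl5 was at 1524, 1710 and 1391 CPM in Con and 1464, 1858 and 1290 in Comb (0.00 ± 0.21, edgeR adjusted p = 0.991). Rpl11 was at 168.8, 160.3 and 179.6 CPM in Con, 130.1, 148 and 155.8 in PD and 173.3, 188.3 and 280.5 in Comb. The PD tumors were below the Con and the Comb tumors, with a log2 fold change of 0.56 ± 0.19 for Comb against PD (edgeR adjusted p = 0.243) that was 0.32 without Comb replicate 3. Rpl23 gave 0.42 ± 0.24 in Comb against Con (edgeR adjusted p = 0.282), or 0.14 without Comb replicate 3, and kept nearly the same level relative to the other members in each tumor. None of the 3 passed in any comparison.

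Of the 8 proteins around the exit of the peptide tunnel, 7 were higher in Comb than in Con and 8 in Comb than in PD, with medians of 0.64 and 0.80 (0.29 and 0.36 without Comb replicate 3). The values in Comb against Con were 0.82 ± 0.30 for Rpl17, 0.82 ± 0.31 for Rpl26, 0.81 ± 0.33 for Rpl31, 0.72 ± 0.37 for Rpl39, 0.57 ± 0.23 for Rpl35, 0.47 ± 0.22 for Rpl4, 0.30 ± 0.23 for Rpl19 and -0.05 ± 0.22 for Rpl23a. None passed in edgeR, with adjusted p from 0.125 to 0.893. Rpl35 was the one that separated the groups most often: it was at 931.5, 925.3 and 845.5 CPM in Con, 939.3, 1135 and 1276 with SFIH alone, 722.1, 849.8 and 763.2 with anti-PD-1 alone, and 992.4, 1165 and 1849 in Comb. Its SFIH and Comb tumors were above the Con tumors, its Comb tumors were above the PD tumors, and DESeq2 gave Comb against PD an adjusted p of 0.0478. Without Comb replicate 3 DESeq2 called 0 members in that comparison, and the edgeR value of Rpl35 was 0.47 in place of 0.78. In its transcript 95.6% of the end windows match another gene.

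Of the 4 proteins at the mRNA entry and the decoding site, Rps3 (0.61 ± 0.27), Rps15 (0.67 ± 0.28) and Rps23 (0.64 ± 0.29) had nearly the same log2 fold change in Comb against Con, with edgeR adjusted p of 0.189, 0.162 and 0.195, and Rps2 lay apart at -0.37. Without Comb replicate 3 the values of Rps3, Rps15 and Rps23 were 0.22, 0.21 and 0.23. Rps3 was at 980.9, 1114 and 922.7 CPM in Con and 1012, 1334 and 2255 in Comb, with overlap.

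Rps4l, Rpl39l and Rpl3l had the largest fold changes of all members in Comb against Con and the lowest levels, and the other listed paralogs and related symbols did not. Rps4l, a copy named after Rps4, had 30, 31 and 44 counts in Con, 32, 36 and 33 with SFIH alone, 45, 53 and 39 with anti-PD-1 alone, and 50, 152 and 445 in Comb. After scaling it was at 2.63, 3.11 and 3.92 CPM in Con and 4.85, 17.5 and 53.5 in Comb, all above Con, and at 2.33, 2.67 and 3.43 in SFIH, all below Comb. The log2 fold change was 2.97 ± 0.68 against Con (edgeR adjusted p = 0.0665, DESeq2 adjusted p = 0.000423) and 3.17 ± 0.69 against SFIH (edgeR adjusted p = 0.128). Without Comb replicate 3 it was 1.79 against Con (edgeR adjusted p = 0.112), and DESeq2 called it still in both comparisons. Rpl39l, the paralog of Rpl39 known from testis, had 9, 14 and 9 counts in Con, 9, 3 and 19 with SFIH alone, 19, 6 and 14 with anti-PD-1 alone, and 16, 40 and 282 in Comb. All Comb tumors were above Con, with a log2 fold change of 3.73 ± 1.08 (edgeR adjusted p = 0.0752) that was 1.61 without Comb replicate 3 (edgeR adjusted p = 0.296).

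Rpl3l, the paralog of Rpl3 found in skeletal and heart muscle, had 8, 9 and 1 counts in Con, 14, 3 and 1 with SFIH alone, 7, 9 and 10 with anti-PD-1 alone, and 23, 3 and 114 in Comb. Its highest and second highest counts were in the tumors whose muscle markers were highest, at 7002 and 836 CPM. SFIH replicate 1 and PD replicate 1, with 60.8 and 170 CPM of muscle markers, had 14 and 7 counts. The part of muscle in these counts was not tested. The log2 fold change in Comb against Con was 3.24 ± 1.20 (edgeR adjusted p = 0.129), and 1.20 without Comb replicate 3. Rpl22l1 was at 81.6, 206.6 and 346.1 CPM in Comb and at 154.8, 117.8 and 131.9 in PD. Its log2 fold change was 1.29 ± 0.44 in Comb against SFIH (edgeR adjusted p = 0.157), or 0.74 without Comb replicate 3 (edgeR adjusted p = 0.499), and its share of the pair with Rpl22 was 7.5% in Comb replicate 3 and 2.32% to 6.1% elsewhere.

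Rpl36al, the paralog of Rpl36a, was at 346.2, 508.8 and 744.6 CPM in Comb, above 314.5 to 340.3 in Con, and its PD tumors, at 358.5, 360.1 and 358.8, were above Con too (0.71 ± 0.24 for Comb against Con, edgeR adjusted p = 0.103, and 0.39 without Comb replicate 3). Rps27l, a paralog of Rps27 that p53 is known to induce, was at 173.8, 242 and 377 CPM in Comb and 179.5 to 191.7 in Con (0.51 ± 0.24, edgeR adjusted p = 0.208), with 0.17 without Comb replicate 3. Its share of the pair with Rps27 was 31.0% in Comb replicate 3 and 42.5% to 57.2% elsewhere. Rpl7l1, a nucleolar relative of Rpl7, was at 153.9, 138.3 and 77.5 CPM in Comb and 118.9 to 133.7 in Con (-0.02 ± 0.23, edgeR adjusted p = 0.96), with 0.22 without Comb replicate 3.

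**Figure D4:**
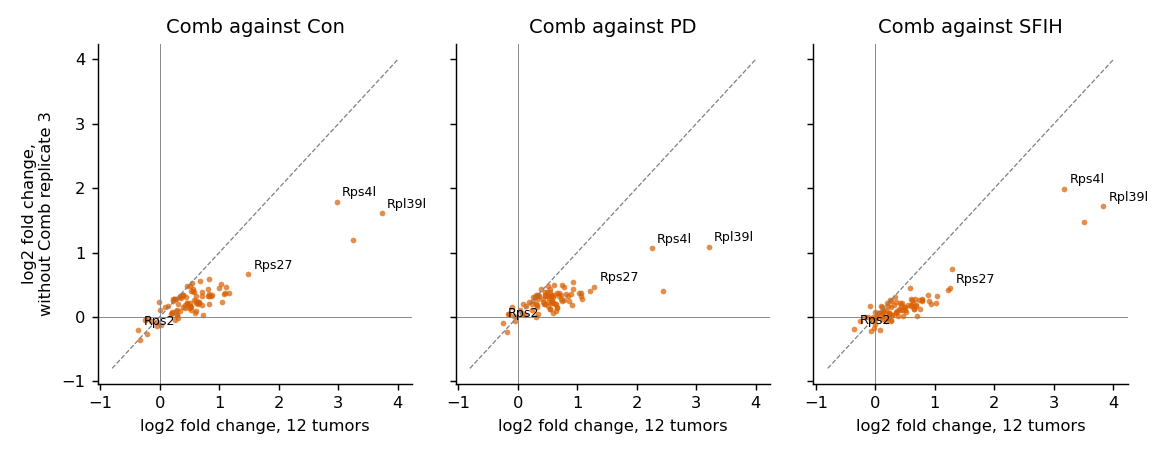
Log2 fold change of each member with all 12 tumors (horizontal) and without Comb replicate 3 (vertical), by edgeR, in the comparisons of Comb with Con, PD and SFIH, with a dashed line where both are equal. Points lie below the line for most members with a positive value, and the medians were 0.50, 0.54 and 0.35 with it and 0.23, 0.28 and 0.12 without it.

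The levels of the members relative to each other were compared next. The SD over 12 tumors of a member's log2 level relative to the median member had a median of 0.209 over the 85 members with a mean of at least 50 counts. It was among the smallest in Rpl23 (0.094) and Rpl29 (0.101) and largest in Rps4l (1.01), Rpl22l1 (0.518) and Rps27 (0.475). Rpl23 was between 1.36 and 1.67 log2 units above the median member in each tumor. Rps27 was between 1.91 and 1.35 units below it outside Comb and Comb replicate 1, but 1.03 below it in Comb replicate 2 and 0.19 below it in Comb replicate 3.

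Transcript length went along with the differences in Comb replicate 3. Over 83 members with an annotated length and a mean of at least 50 counts, Spearman's rho between length and the difference from Con was -0.41 in this tumor and between -0.26 and 0.22 in the other 11. Over 12233 other genes it was -0.16 in Comb replicate 3 and between -0.20 and 0.10 elsewhere. The genes of a tumor share its library, and these values are descriptions. With the members split at lengths of 559, 780 and 1054 bases, the median difference was 1.28 log2 units in the shortest 21 and 0.79, 0.59 and 0.57 in the next groups of 21, 20 and 21. Rps27 and Rps29, with 345 and 390 bases, were among the shortest, and Rps20, with 3706 bases in the annotation, was high too. Other genes in the same ranges of length, 136, 260, 547 and 11290 of them, had medians of 0.55, 0.69, 0.54 and -0.17. In Comb replicate 2 the same groups of members had 0.50, 0.42, 0.37 and 0.44. This split was made after the values of this tumor had been seen. The part of transcript length in the members' levels was not tested.

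**Figure D5:**
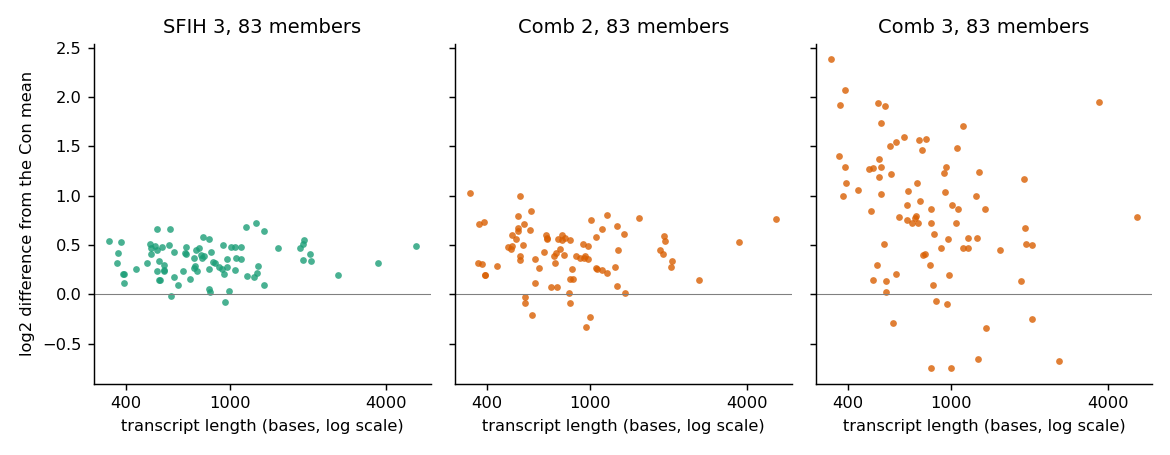
Log2 difference from the Con mean against transcript length (bases, logarithmic axis) for 83 members in SFIH replicate 3, Comb replicate 2 and Comb replicate 3. The values slope downward in Comb replicate 3, where Spearman's rho is -0.41, and are spread evenly in SFIH replicate 3 (0.05) and Comb replicate 2 (-0.11).

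The other genes of the pathway gave mixed values. Of the 3 ribosome components outside the symbol rule, Fau, whose product is cut into a small-subunit protein, was at 611.5, 683.3 and 519.7 CPM in Con and 709.9, 1052 and 1903 in Comb (1.01 ± 0.32, edgeR adjusted p = 0.0881, and 0.54 without Comb replicate 3). Gnb2l1, the scaffold RACK1, gave -0.13 ± 0.20 (edgeR adjusted p = 0.675, and -0.28 without Comb replicate 3). Gnb2l1 was lower in each PD tumor, at 1770, 1845 and 1921 CPM, than in each Con tumor, at 2434, 2553 and 2237 (-0.38 ± 0.20, edgeR adjusted p = 1.0).

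Of 21 translation factors and other TOP mRNAs, 0 passed in edgeR in Comb against Con, with 6 of 21 higher and 1 lower at an unadjusted p under 0.05 (18.0% and 7.3% of all genes), and DESeq2 called 1 as higher (11.7% of all genes). The median was 0.18, 12 were higher and 9 lower. At the ends stood Tpt1, a growth-related TOP mRNA (0.84 ± 0.34, edgeR adjusted p = 0.16), and Naca, a chaperone at the tunnel exit (0.67 ± 0.26, edgeR adjusted p = 0.15), against Pabpc1, the poly(A)-binding protein (-0.97 ± 0.41, edgeR adjusted p = 0.168), and Eef1g (-0.54 ± 0.27, edgeR adjusted p = 0.236). Pabpc1 was at 2176, 1532 and 517.4 CPM in Comb and 2424 to 3414 in Con, without overlap. With SFIH alone it was at 1452, 1837 and 2232 CPM, also below each Con tumor (-0.59 ± 0.41). Without Comb replicate 3 the values were 0.21 for Tpt1, 0.28 for Naca, -0.58 for Pabpc1 and -0.26 for Eef1g. The median difference from Con was 0.11 for these 21 genes and 0.86 for the members in Comb replicate 3, but 0.36 and 0.42 in Comb replicate 2, 0.23 and 0.20 in Con replicate 2 and -0.19 and -0.22 in Con replicate 3.

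Of 14 genes that control the members through mTOR and MYC, 13 were tested and 0 passed in edgeR, with 3 higher and 10 lower in Comb than in Con (median -0.21, or -0.12 without Comb replicate 3). Eif4ebp1, the translation repressor that mTOR phosphorylates, was at 209.6, 186.5 and 76.9 CPM in Comb and 226.9 to 279.9 in Con (-0.66 ± 0.30, edgeR adjusted p = 0.207), and Eif4ebp2 gave -1.26 ± 0.92 (edgeR adjusted p = 0.394). With SFIH alone Eif4ebp2 was below each Con tumor too, at 18.0, 29.0 and 27.8 CPM against 52.3 to 70.8 (-1.28 ± 0.92). Eef2k, the kinase that slows elongation, gave 0.79 ± 0.32 (edgeR adjusted p = 0.156) and Rheb, the activator of mTOR, 0.52 ± 0.27 (edgeR adjusted p = 0.25). Without Comb replicate 3 the values were -0.33 for Eif4ebp1, -0.68 for Eif4ebp2, 0.57 for Eef2k and 0.08 for Rheb.

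The 77 mitochondrial ribosomal proteins, which serve the ribosome of another compartment, had a median log2 fold change of 0.09 in Comb against Con, 46 of them higher, and 0.11 in Comb against PD. None passed in edgeR. In Comb against Con 11 of 77 were higher and 2 lower at an unadjusted p under 0.05, against 18.0% and 7.3% of all genes, and DESeq2 called 6 as higher, against 11.7%. All Comb tumors were above all Con tumors in 15 of them and below in 3, against 11.7% and 13.0% of all genes. In Comb against PD 18 of 77 were higher and 0 lower at an unadjusted p under 0.05, against 12.9% and 5.11% of all genes, and all Comb tumors were above all PD tumors in 22 and below in 0, against 6.16% and 8.1%. The members gave 39 of 87 and 22 of 87 in the higher direction there. The median difference of the mitochondrial ribosomal proteins from Con was 0.12 in Comb replicate 3 and 0.04 in Comb replicate 2. Mrps28 was highest and Mrpl22 lowest in Comb against Con, with log2 fold changes of 1.90 ± 0.57 (edgeR adjusted p = 0.082) and -0.72 ± 0.31 (edgeR adjusted p = 0.173), or 1.73 and -0.38 without Comb replicate 3. Mrps28 was at 2.1, 8.12 and 16.7 CPM in Con, 34.1, 39.5 and 26.0 with SFIH alone, 14.8, 7.22 and 6.69 with anti-PD-1 alone, and 30.8, 28.6 and 41.0 in Comb, so that the 6 tumors that received SFIH were above the 6 that did not, and its log2 fold change in SFIH against Con was 1.89 ± 0.57 (edgeR adjusted p = 1.0).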

How the data were processed

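RNA of 12 tumors was measured, and the authors deposited raw counts per gene symbol in 1 table, from QuantSeq 3′ mRNA-Seq libraries. The aligner, the counter, the build and the annotation are not given in the sources used here. Depth was 7870741 to 12261032 counts per tumor, without molecular identifiers, so that counting error is a lower limit. Columns were assigned from their names and the labels. Replicates differed by more than sampling noise.

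The members, the lists and their tests were chosen with earlier results of these data known. edgeR 4.0.16 in R 4.3.3 was run on the counts with filterByExpr (13464 genes), TMM and the quasi-likelihood test, with all 12 tumors in 1 fit without a block. P-values are two-sided and adjusted by Benjamini-Hochberg over all genes tested, and a gene is called under 0.05. An exact permutation test of 3 tumors against 3 cannot go below a p of 0.1 and was not used. Single levels are CPM after TMM, and log2 differences of tumors add a pseudocount of 1. Shares, relative levels and marker sums use counts without TMM. Values after ± are SE for fold changes and SD for levels.

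The genes named are the 5 with the highest mean CPM, the 3 highest and 3 lowest fold changes per comparison and the 3 most and least variable relative levels among members with a mean of at least 50 counts, the paralogs, and the functional lists. For lists outside the rule they are the 2 largest changes in each direction. Any other gene was named after its values were seen. Some genes that this rule names are not reported here. Transcript lengths, shared windows and start tracts (GENCODE vM21 and RefSeq) were added after the data had been seen, as was the DESeq2 fit without Comb replicate 3. DESeq2 1.42.0, other scalings and filters, a replicate block, the compared groups alone, added pseudogene counts and each tumor left out were the alternatives. DESeq2 calls are given as an alternative only, and which tool makes fewer false calls in these tumors was not tested. Tables used Python 3.11.15, pandas 2.3.3 and scipy 1.17.1.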

Additional observations from a re-analysis of the deposited data

How the results depend on the processing

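The counts of members with an adjusted p under 0.05 in the comparisons with Comb depended on the tool and on 1 tumor. With DESeq2 they were 12 in Comb against Con, 4 in Comb against PD and 4 in Comb against SFIH, and in the DESeq2 fit without Comb replicate 3, added after seeing the data, 1, 0 and 1. Leaving out each tumor in turn gave 0 to 42 members in Comb against Con, 0 to 41 in Comb against PD and 0 to 33 in Comb against SFIH, the highest each time without Comb replicate 1, where edgeR called 18.4%, 11.0% and 15.5% of all genes as higher. Without TMM the median log2 fold change in Comb against Con was 0.194. Without Rn45s in the total, the mean share on the members was 8.81% in Con and 8.31% in PD. The log2 fold change of Rps19bp1 in Comb against PD was 0.0375 without Comb replicate 3 (0.0523 with DESeq2), with a range of -0.277 to 0.0375 over the tumors left out. That of Rpl6 in Comb against SFIH was 0.00231 (0.0207 with DESeq2), with a range of -0.36 to 0.00231. The cause of these shifts was not tested. The other 28 of 30 named fold changes kept their sign in all alternatives run, and over all 660 values 639 kept direction and side of the threshold, and 17 passed it with the same direction, with a lowest adjusted p of 0.000312 (DESeq2, Rps4l). These fold changes were named as the highest and lowest of the same data, and the alternatives share most or all tumors. The counts are therefore no independent check. Replicate numbers did not pair the tumors: deviations from the group means correlated between -0.212 and 0.341 over 18 pairs with the same number and between -0.281 and 0.269 over 36 with different numbers. With a replicate block the medians were 0.0658 (SFIH against Con), -0.048 (PD against Con), 0.46, 0.498 and 0.336 (Comb against Con, PD and SFIH), and 0 members were called. Depth limits only the lowest members, such as Rpl3l and Rpl39l, with single tumors at 1 to 3 counts.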
